A study of Mus musculus with 2 samples.

Results

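The transcription factor KLF4 had a single, shallow ChIP peak assigned to each of 7 signalling genes in mouse portal fibroblasts. Assignment was to the gene of the nearest transcript start, and only 2 of the 7 peaks were classed as promoter. They were Id1, Tgif1, Smad6 and Smurf1 of the TGF-β and BMP pathways, Notch2 and Jag1 of the Notch pathway, and Tcf7l2 of the Wnt pathway. The genes were chosen from the peak list itself, because each had a peak, so the presence of those peaks is a description and carries no test. Every entry whose gene symbol was one of the 7 was taken, together with every intronic entry whose annotation text named the same Ensembl gene. This gave 7 peaks of 4216, and 7 genes of the 3648 to which the list assigned a peak. The intronic search added none beyond those found by symbol.

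The cells came from livers of Clec3bCreERT2;R26tdT mice, in which a Cre recombinase driven from Clec3b, once activated by tamoxifen, switches on the red fluorescent protein tdTomato. Reporter-positive cells were sorted and then given extra Klf4 by lentivirus. The study measured where KLF4 sits in these cells by chromatin immunoprecipitation with sequencing (ChIP-seq), with 1 library from the KLF4 antibody and 1 from input chromatin, both from cells with added Klf4. No value below therefore has a replicate error, and binding at native Klf4 levels was not measured in these libraries. The number, age and sex of the mice are not given in the labels, and a binding assay gives no marker levels by which the labelled cell type could be checked. The purpose given for the experiment was to learn how KLF4 acts on the change of portal fibroblasts into myofibroblasts.

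TGF-β and BMP ligands bind paired serine/threonine kinase receptors, which phosphorylate receptor-regulated Smad proteins that enter the nucleus with Smad4. The inhibitory Smads, the Smurf ubiquitin ligases and nuclear corepressors such as TGIF1 damp this signal. TGF-β is the best known driver of the myofibroblast state in fibrotic liver. In the Notch pathway a ligand on one cell, such as JAG1, triggers cleavage of a receptor on its neighbour, such as NOTCH2, and the freed receptor fragment works in the nucleus through RBPJ. In liver, JAG1 from portal mesenchyme acting on NOTCH2 is required for bile duct formation. TCF7L2 is a DNA-binding partner of β-catenin at the end of the canonical Wnt pathway.

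The Tgif1 peak was the only one of the 7 to span a transcription start site (TSS), so promoter sequence is shown for that gene. RefSeq, on GRCm38.p6, lists 5 Tgif1 starts, numbered here from the most upstream. Starts 2 to 5 lie 1798, 2322, 3742 and 6755 bp downstream of the first. The peak list uses the newer build GRCm39, and which of the 5 starts lies under the peak was not determined. The 250 bases before each start follow, read 5′ to 3′ along the gene. Capitals mark GGNGNGG on either strand, letters contained in the boxes that KLF and SP family proteins read and also in many plain GC boxes.
Tgif1 start 1, chr17:70853533-70853782, minus strand: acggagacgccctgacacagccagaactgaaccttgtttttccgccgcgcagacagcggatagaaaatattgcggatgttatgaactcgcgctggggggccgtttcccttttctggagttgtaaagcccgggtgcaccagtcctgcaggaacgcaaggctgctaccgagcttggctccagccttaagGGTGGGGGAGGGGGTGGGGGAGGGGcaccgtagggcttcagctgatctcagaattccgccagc
Tgif1 start 2, chr17:70851735-70851984, minus strand: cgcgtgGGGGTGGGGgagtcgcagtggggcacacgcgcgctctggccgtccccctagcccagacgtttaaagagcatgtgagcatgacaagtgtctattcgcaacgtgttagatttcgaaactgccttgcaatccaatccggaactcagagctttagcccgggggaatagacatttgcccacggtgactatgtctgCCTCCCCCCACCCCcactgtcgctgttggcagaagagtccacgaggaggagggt
Tgif1 start 3, chr17:70851211-70851460, minus strand: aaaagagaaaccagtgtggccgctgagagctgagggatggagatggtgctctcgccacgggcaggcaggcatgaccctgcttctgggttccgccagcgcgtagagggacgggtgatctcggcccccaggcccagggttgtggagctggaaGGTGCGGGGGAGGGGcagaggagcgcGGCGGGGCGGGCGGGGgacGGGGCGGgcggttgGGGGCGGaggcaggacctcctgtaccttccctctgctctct
Tgif1 start 4, chr17:70849791-70850040, minus strand: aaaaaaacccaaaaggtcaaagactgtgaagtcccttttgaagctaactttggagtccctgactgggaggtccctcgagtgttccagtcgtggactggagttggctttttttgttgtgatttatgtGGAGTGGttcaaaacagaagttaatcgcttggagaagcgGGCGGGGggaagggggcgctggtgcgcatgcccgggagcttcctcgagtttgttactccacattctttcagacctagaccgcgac
Tgif1 start 5, chr17:70846778-70847027, minus strand: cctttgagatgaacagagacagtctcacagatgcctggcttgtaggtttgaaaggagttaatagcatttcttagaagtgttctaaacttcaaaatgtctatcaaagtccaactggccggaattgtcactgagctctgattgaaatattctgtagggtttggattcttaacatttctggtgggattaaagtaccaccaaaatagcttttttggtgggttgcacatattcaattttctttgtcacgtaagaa

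Of these 5 windows, 4 held GGNGNGG, with 7, 5, 8 and 2 matches before starts 1 to 4 and 0 before start 5. Matches were counted on both strands and could overlap one another. The letters are common: 65.4% of 32851 promoter windows of the same length held them, and 95.4% of the 9178 windows with a G and C content of at least 60%. The G and C content of the 5 windows was 59.6%, 58.8%, 69.6%, 51.2% and 38.0%. The peak reached 49 bp upstream of the deposited start. In the last 49 bases before the start, starts 1, 2 and 3 had 2, 2 and 1 matches and starts 4 and 5 had 0. In that stretch 30.4% of all windows had any, and 56.7% of those with a G and C content of at least 60%. The closer KLF box GGGTGTG, which overlaps GGNGNGG when a further G follows it, had 0 matches in the 5 windows and was present in 6.93% of all windows. The Smad-type letters CAGAC occurred before starts 1, 2 and 4 (1, 2 and 1 matches, present in 42.2% of all windows). The other Smad-type letters searched, GGCGCC, had 0 matches in the 5 windows (9.59% of all windows). The RBPJ-type letters TGGGAA had 0 matches there (21.6% of all windows). The letters CTTTGAT, of the type that TCF7L2 reads, had 1 match, before start 5 (3.21% of all windows). A match describes letters and not a bound site, and the absence of letters in a window says nothing of the factor.

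Across the 7 genes the peaks were weak, as most of the list was. Their fold enrichments, given by the authors on a linear scale as ChIP against the local background after adding 1 to either, ran from 4.46 to 5.35 with a median of 4.54, beside a median of 4.59 over all 4216 peaks (quartiles 4.54 and 4.94). Fold and p together give the count of ChIP fragments at a summit, which was 5 at Id1, Tgif1 and Jag1, 6 at Smad6, Smurf1 and Tcf7l2, and 9 at Notch2. Thus 6 of the 7 stood on 5 or 6 fragments, as did 75.3% of the whole list. The exact 95% Poisson interval of 5 fragments is 1.62 to 11.7, of 6 fragments 2.20 to 13.1 and of 9 fragments 4.12 to 17.1, so the intervals of all 7 overlapped. These intervals cover counting error only, and not the choice of the summit as the highest point.

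**Figure D1:**
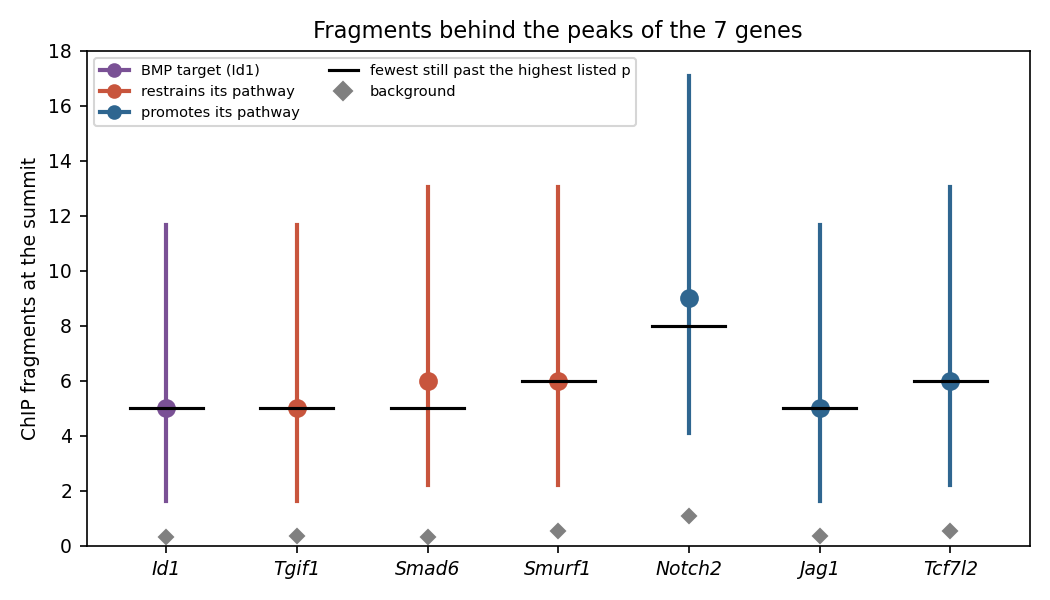
ChIP fragments at the summit of the peak of each gene (circles, vertical axis), with exact 95% Poisson intervals (vertical lines), the local background in the same unit (diamonds) and the fewest fragments that would still pass the highest p in the list at that background (black bars). Colours give the gene's role; 5 of the 7 circles lie on their bar, and Smad6 and Notch2 lie 1 fragment above it.

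The margin by which these peaks entered the list was small. The highest p in the list was 2.26e-06. At the backgrounds of Id1, Tgif1, Smad6 and Jag1, 5 fragments were the fewest that gave a p this low, at Smurf1 and Tcf7l2 6 and at Notch2 8. With 1 fragment fewer at the same background, the peaks of Smad6 and Notch2 would still pass (2 of 7), with p of 9.01e-07 and 2.16e-06, and the other 5 would not, with p between 1.77e-05 and 3.02e-05. Over the whole list 23.4% of peaks would pass. A q under 0.01 was reached by 1 of the 7, Smad6, beside 17.4% of all peaks. These shares describe peaks that were picked for being listed, and nothing about the members is read from them. The members nearest the limit were Smurf1, Jag1 and Tcf7l2, each with a q of 0.0484, where the highest q in the list was 0.0491. Entries beyond that limit were not analysed here.

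By place, 2 of the 7 peaks were annotated as promoter, those of Id1 and Tgif1, beside 20.6% of the whole list. Smad6 and Smurf1 had intronic peaks, Notch2 and Tcf7l2 distal intergenic peaks and Jag1 a peak classed as 3′ untranslated region. All distances below are to the start of the nearest transcript in the deposited annotation, which is not always the longest transcript of the gene.

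**Figure D2:**
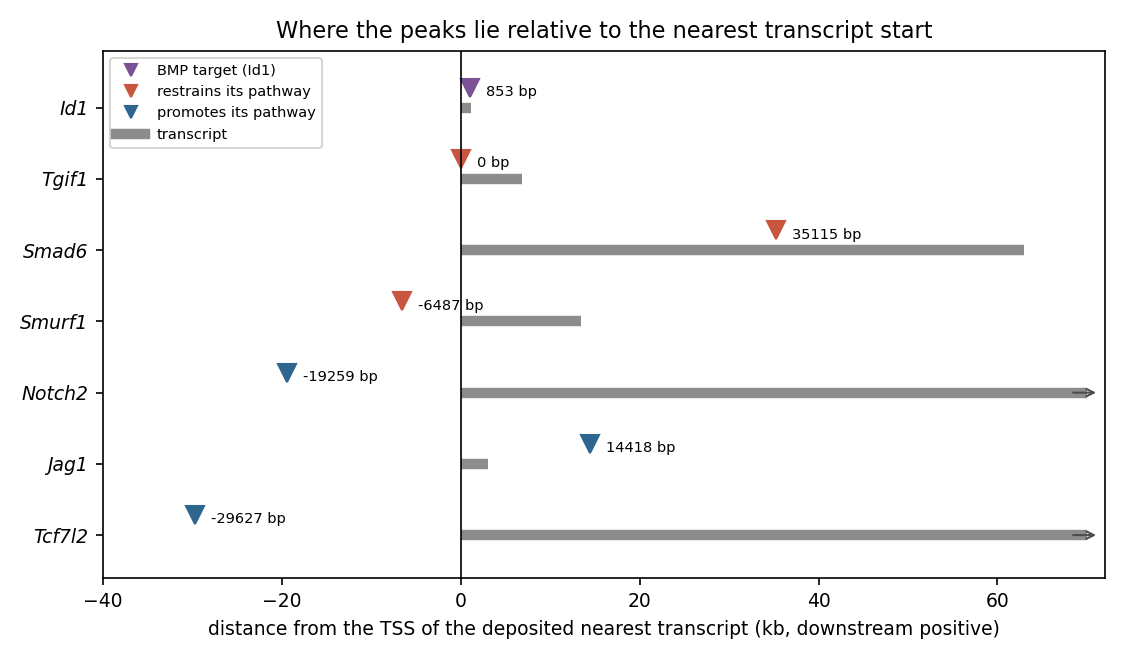
Position of each peak (triangles, coloured by role) relative to the start of its deposited nearest transcript (grey bars, direction of transcription to the right), in kb on the horizontal axis; bars of Notch2 and Tcf7l2 run past the edge. The peak spans the start at Tgif1 (0 bp), lies 853 bp downstream at Id1, and lies 6487 to 35115 bp away, upstream or downstream, at the other 5 genes.

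Id1 (ENSMUSG00000042745) encodes an inhibitor of basic helix-loop-helix factors and is a direct transcriptional target of BMP receptors and Smads. Its peak covered 384 bp at chr2:152579024-152579407 and began 853 bp downstream of the start. The Id1 transcript is only 1160 bp long, so this promoter peak did not lie upstream of the gene. It overlapped the last 307 bp of the transcript and ran 77 bp past its 3′ end. The fold was 4.59 with a q of 0.0475, from 5 fragments at the genome-wide background of 0.307 fragments. It was wider than 87.7% of all peaks, yet 989 peaks in the list had the same fold and q.

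Tgif1 (ENSMUSG00000047407) encodes a homeodomain corepressor that binds Smad complexes and restrains TGF-β responses. Its 147 bp peak at chr17:71157967-71158113 spanned the start of a transcript of 6859 bp, reaching 49 bp upstream and 97 bp downstream of it. The fold was 4.48 with a q of 0.0475, from 5 fragments against a background 1.10 times the genome-wide one. In the list 87.5% of peaks had a higher fold. The peak thus had the position nearest to a start among the 7 and the second lowest fold.

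Smad6 (ENSMUSG00000036867) encodes an inhibitory Smad that acts mainly against BMP signalling. It had the strongest of the 7 peaks by fold and q. The peak covered 243 bp at chr9:63888912-63889154, in intron 3 of 3 of a Smad6 transcript and 35115 bp downstream of the start. Its fold was 5.35 and its q 0.00523, from 6 fragments at the genome-wide background. Of all peaks 7.38% had a higher fold, and 142 had exactly this fold and q. At the same background, to within 0.001 fragments, 989 peaks had 5 fragments, 142 had 6 and 41 had more, so Smad6 stood 1 fragment above the commonest value.

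Smurf1 (ENSMUSG00000038780) encodes a ubiquitin ligase that marks BMP-regulated Smads and TGF-β receptors for degradation. Its peak was the narrowest of the 7, 93 bp at chr5:144841291-144841383, and only 1.71% of all peaks were narrower. It lay in intron 1 of 18 of a long transcript and 6487 bp upstream of the nearest start, that of a short internal transcript of 13403 bp. The fold was 4.54 with a q of 0.0484, from 6 fragments against a background of 0.542 fragments, the value read as 1 input fragment. That fold and q were shared by 563 peaks, among them the peak of Tcf7l2.

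Jag1 (ENSMUSG00000027276) encodes a membrane-bound Notch ligand. Its peak of 132 bp at chr2:136913320-136913451 was classed as 3′ untranslated region, a class that names no gene in the deposited table. It lay 14418 bp downstream of the start of a short Jag1 transcript of 3057 bp and 11361 bp past the end of that transcript. The neighbouring coding gene on that side is Slx4ip, and which gene's untranslated region holds the peak was not determined. The fold of 4.46 was the lowest of the 7, with a q of 0.0484, from 5 fragments against a background 1.12 times the genome-wide one. In the list 89.1% of peaks had a higher fold.

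Notch2 (ENSMUSG00000027878) encodes a Notch receptor. Its peak had the most fragments of the 7 and also the highest background. It covered 290 bp at chr3:97901295-97901584, 19259 bp upstream of the start, and was annotated as distal intergenic. The 9 fragments stood against 1.08 background fragments, read as 2.00 input fragments and 3.53 times the genome-wide level, which gave a fold of 4.80 and a q of 0.0161. Of all peaks 30.1% had a higher fold. At that background 61 peaks had 8 fragments, the fewest listed there, 14 had 9 and 10 had more.

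Tcf7l2 (ENSMUSG00000024985) encodes the Wnt effector TCF4 of the TCF/LEF family. Its peak, 139 bp at chr19:55700487-55700625, was the farthest upstream of the 7, 29627 bp before the start of a transcript of 191433 bp. The fold was 4.54 with a q of 0.0484, from 6 fragments over a background of 0.542 fragments. In fold, q, fragments and background it equalled the Smurf1 peak.

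Ordered by fold, the genes ran from Smad6 (5.35) through Notch2 (4.80), Id1 (4.59), Tcf7l2 and Smurf1 (4.54 each) and Tgif1 (4.48) to Jag1 (4.46). With the background held fixed, the counting interval of the fold was 2.45 to 10.8 at Smad6 and 1.95 to 9.43 at Jag1. The intervals of the first and last in the order overlapped. No pair of genes was tested for a difference, so the order is a description. It also depends on the added 1. Without it the ratios were 19.5 at Smad6, 16.3 at Id1, 14.7 at Tgif1 and 14.5 at Jag1. They were 11.1 at Smurf1 and Tcf7l2 and 8.30 at Notch2, which was then the lowest. A fold above the median of the list was found at 2 of the 7, Smad6 and Notch2, beside 36.2% of all peaks.

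**Figure D3:**
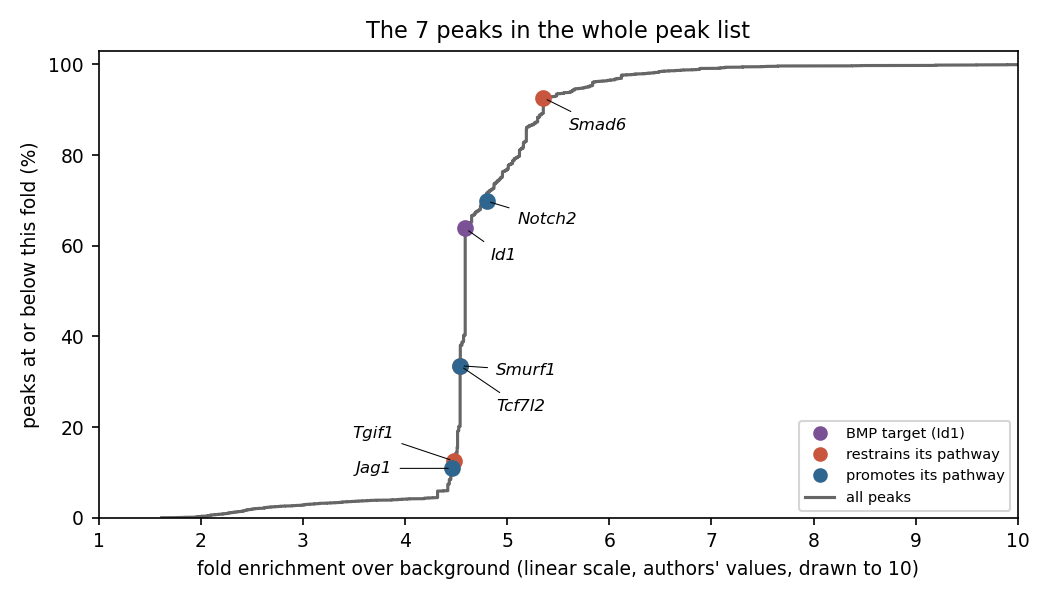
Share of all 4216 peaks at or below each fold enrichment (grey line, percent on the vertical axis, fold on a linear horizontal axis drawn to 10), with the 7 peaks as circles coloured by role; Smurf1 and Tcf7l2 fall on the same point. The line climbs steeply around the list median of 4.59, and 5 of the 7 circles lie at or below that fold.

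Sorted by what the genes do, restrainers and promoters of signalling overlapped in fold. Tgif1, Smad6 and Smurf1, which restrain TGF-β or BMP signalling, had folds of 4.48, 5.35 and 4.54 (median 4.54). Notch2, Jag1 and Tcf7l2, which carry or promote Notch or Wnt signalling, had 4.80, 4.46 and 4.54 (median 4.54). The equal medians hold only with the added 1. Without it the ratios were 14.7, 19.5 and 11.1 at Tgif1, Smad6 and Smurf1. At Notch2, Jag1 and Tcf7l2 they were 8.30, 14.5 and 11.1. The ranges overlapped in either form, and no test was run on 3 genes against 3 chosen for having peaks. Id1, the BMP target, lay between in fold at 4.59. Deposited gene terms put Smad6, Smurf1 and Jag1 on these sides. In the authors' deposited table Smad6 carried 4 terms for negative regulation of TGF-β, BMP or Smad steps and Smurf1 carried 2, while Jag1 carried 1 for positive regulation of Notch signalling and Notch2 1 for positive regulation of BMP signalling. Tcf7l2 went the other way in the authors' deposited table, with 2 negative terms, for BMP and canonical Wnt signalling. Tgif1 and Id1 had 0 terms of either kind.

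The 7 peaks lay on 6 chromosomes. Within 1 Mb of the Tgif1 peak there were 10 other peaks, near Id1 5, Smurf1 3, Smad6 and Notch2 2 each, and Jag1 and Tcf7l2 1 each, beside a median of 3 (quartiles 2 and 5) over all peaks. The nearest other peak to Id1 was 51451 bp away at a promoter of Mcts2, the next coding gene, with a fold of 4.59. The nearest to Smurf1 was an exonic peak of the neighbouring gene Trrap, 71713 bp away. Smad6 had no other peak within 100 kb, and neither did Notch2, Jag1 or Tcf7l2. For the Jag1 peak the gap to the next peak was 768144 bp. The background at all 7 summits was at most 3.53 times the genome-wide one, so 0 of the 7 lay where input was over 10 times that level.

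Beyond the 7, the pathways were surveyed with lists of 115 genes ordered by role, all of which were found by symbol in the gene table. A peak of any class was assigned to 15 of them (13.0%), beside 6.91% of 21896 protein-coding genes, and a promoter peak to 7 (6.09%), beside 2.18%. The 7 genes were selected for their peaks, and without them 8 of 108 had any peak (7.41%) and 5 a promoter peak (4.63%). Leaving out only genes with peaks lowers these shares by construction, also in the separate lists below. The lists themselves were chosen with earlier results of these data known. How gene length and spacing bear on these shares was not tested.

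In the TGF-β and BMP list 5 of 49 genes had a peak (10.2%), beside 6.91% of all protein-coding genes. Without the 7 genes it was 1 of 45 (2.22%), a share that leaving out only genes with peaks lowers by construction. None was assigned to the 11 ligands, 12 receptors and 6 signal-carrying Smads, groups in which a share of 6.91% gives few genes. Of 14 inhibitors 4 had a peak, namely Smad6, Smurf1, Tgif1 and Fst, the activin-binding protein follistatin. Leaving out the 3 chosen inhibitors, 1 of 11 had a peak (9.09%). Of 6 targets Id1 had one. Members of the 7 make up 4 of these 5 genes and were picked for having peaks, so the split by role is a description. The Fst peak, 3576 bp upstream of its start, had a fold of 5.01 and a q of 0.0161 from 7 fragments. A gene without a listed peak may still be bound at this depth.

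In the Notch list 6 of 34 genes had a peak (17.6%), beside 6.91% of all protein-coding genes, and 3 had promoter peaks (8.82%, beside 2.18%). Without Notch2 and Jag1 the counts were 4 of 32 (12.5%) and 3 of 32 (9.38%), which rest on few genes and have no test. Spen encodes a corepressor that acts with RBPJ when Notch is off. It had a peak 471 bp upstream of a start with a fold of 6.06 and a q of 0.000424, from 7 fragments, and a weaker one 2790 bp upstream of another start (fold 4.59). Rbpj, the DNA-binding factor of the pathway, had a peak 63 bp downstream of a start with a fold of 5.61 and a q of 0.00261, from 8 fragments, and a weaker one 2255 bp upstream of another (fold 4.54). Aph1a, a subunit of the γ-secretase that cleaves Notch, had a peak 677 bp upstream of its start (fold 5.35, q of 0.00523, 6 fragments). The folds at these 3 promoters were at or above the highest of the 7 genes, 5.35 at Smad6, while their counting intervals (2.20 to 13.1 fragments at Aph1a, 3.45 to 15.8 at Rbpj) overlapped those of the 7. Fbxw7, a ubiquitin ligase subunit that marks active Notch for degradation, had an exonic peak with a fold of 5.05. The 5 listed Notch target genes had 0 peaks.

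In the Wnt list 4 of 32 genes had a peak (12.5%), or 3 of 31 without Tcf7l2 (9.68%), beside 6.91% of all protein-coding genes. Besides Tcf7l2 these were Fzd2, a Wnt receptor with a peak across its start (fold 4.54, 5 fragments), Axin1, a scaffold of the β-catenin destruction complex with a peak 1084 bp downstream of a start (fold 4.51, 6 fragments), and Gsk3b, the kinase of that complex, with an intronic peak (fold 4.42, 5 fragments). All 3 of these other genes had a q between 0.0475 and 0.0484. Counted over the 3 pathways, 8 of 35 restrainers (22.9%) and 6 of 66 genes that promote signalling (9.09%) had a peak, beside the same 6.91%. Without the 7 genes the counts were 5 of 32 (15.6%) and 3 of 63 (4.76%). The difference between these roles was not tested, and the counts depend on which genes the lists hold. The Wnt list holds no ligands. Genes with peaks outside the lists were not counted, among them the ligand gene Wnt10b, the BMP co-receptor gene Rgmb and the corepressor gene Tle4.

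**Figure D4:**
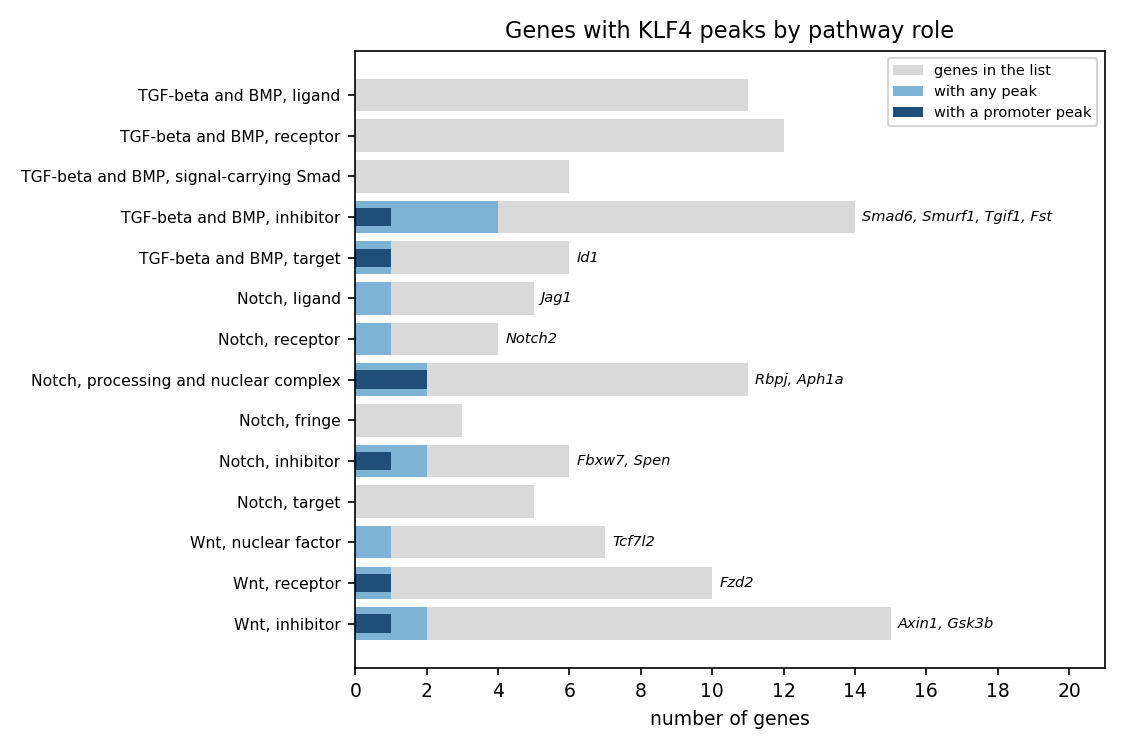
Number of genes (horizontal axis) in each role of the 3 pathway lists (grey), with any peak (light blue) and with a promoter peak (dark blue), and the genes with peaks named. The TGF-β and BMP ligands, receptors and signal-carrying Smads have 0 genes with a peak, and 4 of 14 inhibitors have one. Of these 4, 3 are among the 7 genes chosen for their peaks, and without them it is 1 of 11 (9.09%). Over all protein-coding genes the share is 6.91%, which gives few genes in groups of this size.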

How the data were processed

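The deposited table is the authors' annotated list of peaks of 1 KLF4 ChIP library over 1 input library, grouped by sample title. Peak calling and annotation tools listed in the submitters' processing notes are MACS2 2.2.7.1 and ChIPseeker 1.44.0, with Bowtie2 2.4.2, fastp 0.24.0 and the build GRCm39. How they were set is not stated. Fold (a linear ratio), p-value, q-value and their −log10 forms are as the authors deposited them, as are width, class, nearest transcript and distance.

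Fragments and background were solved from fold and p as whole-number heights under a Poisson model, with a largest allowed gap of 0.001 in −log10 p, met by all 4216 peaks. In 1000 simulated peaks the recovery was 100%. These were drawn from the solved list and made with the same Poisson model, so this checks the solving step and not the model. Read totals were not used. Promoters reach 3 kb, as deposited. High background means over 10 times the genome-wide value.

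The 7 genes, the pathway lists and the motifs were chosen with earlier results of these data known, and no set test was run. The text names the 7 genes and every other listed gene with a peak. Alternatives were stricter q limits, more fragments, assignment by symbol alone, a 1 kb promoter limit, no added 1 and leaving out genes. Symbols were matched to a GRCm38.p6 gene table for names only, and promoter sequences are RefSeq's on that build, found for 6 of the 7 genes. Software was scipy 1.17.1, pandas 2.3.3 and numpy 2.4.6 under Python 3.11.15, with figures by matplotlib 3.10.9.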

Additional observations from a re-analysis of the deposited data

How the results depend on the processing

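The count of peaks assigned to the 7 genes was 7 with assignment by symbol alone and without high-background peaks. It was 4 with at least 6 fragments, 1 (Smad6) with a q under 0.01 and 0 with a q under 1e-05. With 1 fragment fewer, an alternative chosen after seeing the data, 2 were left. The 2 promoter peaks were 2 within 1 kb and without high-background peaks, 0 with a q under 0.01, and 1 (Tgif1) when a peak running past the end of its transcript was not counted, also chosen after seeing the data. The median fold of 4.54 was 4.54 to 4.56 with any of the 7 genes left out. Without the added 1 it was 14.5, as it was for all peaks, since adding 1 to both lowers a ratio most where the background is low. The order of the genes by strength changed as well. Of the 115 pathway genes 15 had a peak, 4 with a q under 0.01 and 8 without the 7 genes; promoter peaks numbered 7, then 6 within 1 kb and 5 without the 7 genes. The stricter limits leave fewer peaks by construction. With 5 to 9 fragments a peak, depth limits every statement on strength. No paired analysis was possible because there was 1 library of each kind and no test between groups.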

Other observations

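The pathway column of the authors' deposited table places further peaks in these pathways, at genes that were not in the lists and were chosen after their values were seen. Under TGF-β signalling it holds 8 peaks of 8 genes, 4 of them among the 7. The strongest by fold in the authors' deposited table was Rgmb, a BMP co-receptor, with a promoter peak 1868 bp upstream of its start, a fold of 6.49 and a q of 9.76e-05. It stood on 9 fragments (exact 95% Poisson interval 4.12 to 17.1, counting error only), as many as Notch2. Fbn1, the fibrillin that stores latent TGF-β in the matrix, was assigned a peak 54918 bp upstream of its start. That peak had a fold of 4.59 and a q of 0.0475 from 5 fragments. It was classed as 3′ untranslated region, and of which gene was not determined. Emp3, a membrane protein gene that the authors' deposited table also places there, had a peak across its start with a fold of 5.19.

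Under Notch signalling the authors' deposited table holds 11 peaks of 8 genes, 5 of them promoter peaks. Besides those already given, Atxn1 had an intronic peak with a fold of 5.40, the acetyltransferase gene Kat2b an intronic peak at 4.54, and the corepressor gene Tle4 distal intergenic peaks at 4.48 and 4.43. Under Wnt signalling there were 20 peaks of 17 genes with a median fold of 4.54, of which 8 were promoter peaks and 2 had a q under 0.01. Those 2 were an intronic peak assigned to the kinase gene Mapk10 (fold 6.88) and a promoter peak of the ligand gene Wnt10b (fold 5.35). The Mapk10 peak lay 40129 bp upstream of the assigned start. Wnt10b had another promoter peak, with a fold of 4.42 and a q of 0.0484. No pathway sizes were available in the table, so these counts have no share of a whole.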
